A study of Homo sapiens with 12 samples.

Results

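The aminoacyl tRNA synthetases were followed as a set of 36 genes chosen by name: the enzymes that charge tRNAs in the cytosol and those that do so in mitochondria. The count table held 35 of them among 56638 gene symbols, MARS2 was not analysed here, and all 35 were among the 16080 genes that passed the filter on low counts. Of the 35, 20 act in the cytosol, 2 of these (GARS and KARS) serving both compartments from 1 gene, and 15 act in mitochondria. Cells of 501Mel, an established human melanoma line, were exposed for 48 h to DMSO alone (vehicle), to 1 μM Vem (vemurafenib, an inhibitor of the BRAF kinase), to 5 μM RSV (resveratrol, a plant polyphenol), to 10 nM TCDD (dioxin, an agonist of the aryl hydrocarbon receptor, AhR), or to RSV+Vem or RSV+TCDD at the same doses of Vem and RSV. The dose of TCDD in the RSV+TCDD group is given as 10 nM in the treatment protocol and as 1 nM in the sample label. The study compared Vem and TCDD, both described as ligands of AhR, and used RSV as an antagonist of that receptor. Each of the 6 groups had 2 libraries. The labels do not say that they came from separate cultures, so the p-values measure the spread between libraries, which may be technical.

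Synthetases join amino acids to the tRNAs that read their codons, and the products feed the ribosome. Nuclear genes encode both the cytosolic enzymes and their mitochondrial partners, whose names end in 2. Several cytosolic enzymes are held together with the scaffold proteins AIMP1, AIMP2 and EEF1E1 in the multisynthetase complex. Uncharged tRNA activates the kinase GCN2 (EIF2AK4), which leads to translation of the transcription factor ATF4, and many cytosolic synthetase genes are known targets of ATF4 together with ASNS, TRIB3 and other genes of amino acid supply. ATF4 and its partners of the C/EBP family bind the C/EBP-ATF response element, a composite of the sites of both.

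Counts on genes ranged from 8378655 to 25076925 per library, with the fewest in RSV+Vem 2, and RIN values from 8.6 to 9.7, with both RSV+Vem libraries lowest at 8.7 and 8.6. The members together held between 4679 and 5883 CPM after TMM scaling, where CPM is a gene's count relative to its library's scaled total, highest in the Vem libraries. ERCC spike-ins held between 0.0310% and 0.0936% of counts, and their share differed within the RSV+Vem group (0.0389% and 0.0903%). All 6 melanocyte markers were detected in every library, PMEL at 5699 CPM or more, while the markers of keratinocytes, leukocytes and endothelium and 1 of 2 fibroblast markers did not pass the filter. The 6 melanocyte markers were all called lower with RSV (median -0.61 on the log2 scale), and again when RSV was added to Vem (-0.74) or to TCDD (-0.47). Of all tested genes 20.4%, 18.7% and 19.1% were lower in these comparisons. With Vem 5 of the markers were called higher (25.4% of all tested genes) and with TCDD 3 (4.5%). When Vem was added to RSV 5 were higher (11.2%), and when TCDD was added to RSV 4 (3.61%). None was lower in any of these. The fibroblast marker that passed, the collagen gene COL1A1, stood at 2.59 CPM or less and was called lower with Vem (-1.17) and higher when RSV was added to Vem (1.64) or TCDD (1.51). The part of these markers in the values below was not tested. In bulk RNA fewer cells of a kind and less RNA per cell cannot be told apart.

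Per kilobase of the canonical transcript, the cytosolic and dual members were the more abundant in vehicle-treated cells. Their median was 72.7 CPM per kb, against 17.4 for the mitochondrial members. TARS, the threonyl enzyme, stood first at 144 ± 6.65 CPM per kb (SD, n = 2). QARS (glutaminyl) followed at 127 ± 2.90, then NARS (asparaginyl) at 120.0 ± 6.56 and GARS (glycyl) at 116 ± 10.8. The ranges of NARS and GARS overlapped, so their order is within the spread of the libraries. The lowest cytosolic gene per kb was FARSB, the beta subunit of the phenylalanyl enzyme, at 16.9 ± 1.44, while the alpha subunit FARSA reached 81.7 ± 11.5. Much of this gap comes from the lengths used, 6761 bases for FARSB and 1811 for FARSA. Before division by length they had 114 ± 9.73 and 148 ± 20.9 CPM, and WARS stood below both at 84.8 ± 3.39 CPM. Among the mitochondrial members IARS2 was the highest at 75.0 ± 3.79 CPM per kb, followed by NARS2 at 47.5 ± 1.43. SARS2 was lowest at 1.90 ± 0.494. It shares exons with a read-through gene on the same strand that can take its counts, so its level is uncertain.

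In 14 of 15 pairs of partners for the same amino acid the cytosolic gene had the higher level per kb, with a median ratio of 3.41. The exception was isoleucine, with 68.0 ± 2.91 CPM per kb for IARS and 75.0 ± 3.79 for IARS2. The largest ratio other than that of SARS and SARS2 was 14.1, for FARSA over FARS2 at 5.81 CPM per kb. FARSB, the other cytosolic subunit at 16.9 CPM per kb, was not paired, so this ratio depends on the subunit taken. EPRS, which charges both glutamate and proline, was counted once against EARS2 and once against PARS2. Lengths are those of 1 transcript per gene, and isoforms of other lengths would change these values.

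**Figure D1:**
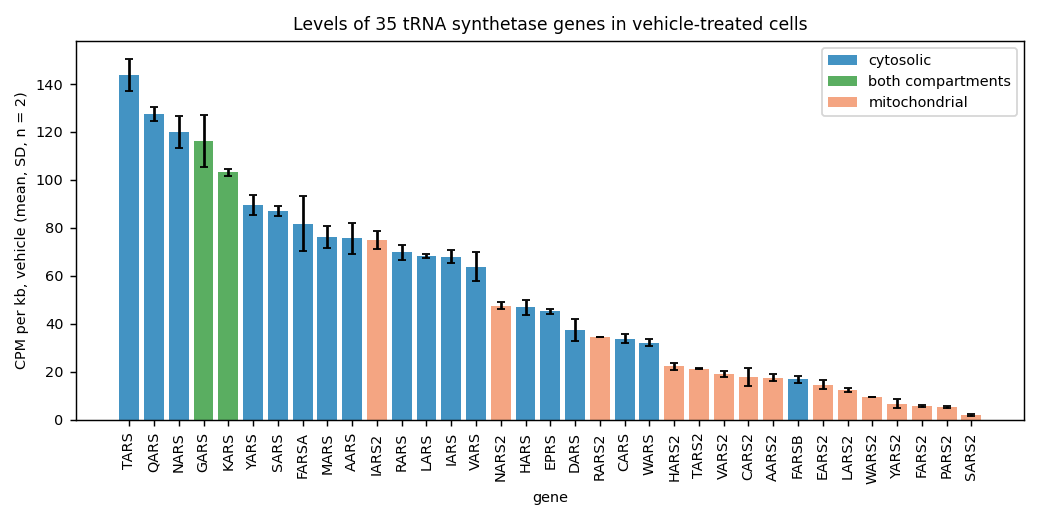
Level of each synthetase gene in the 2 vehicle libraries as TMM-scaled CPM per kb of canonical transcript on the vertical axis (bars, mean, lines, SD), ordered along the horizontal axis and coloured by compartment. Below WARS at 32.1 ± 1.28 all are mitochondrial except FARSB, while IARS2, NARS2 and RARS2 stand among the cytosolic genes.

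Promoter windows were available for 29 of the 35 members. They run from 250 bases before to 50 after the RefSeq start of the gene on GRCh38.p14. They were searched on both strands for TGATGNAA, a form of the C/EBP-ATF response element, because cytosolic synthetases are known targets of ATF4. It was found for 7 of 16 cytosolic or dual members and for 1 of 13 mitochondrial members, against 2.915% of the 11081 tested genes with a window and 4.457% of all 27305 genes with one. The 8 matches are shown as 30-base stretches on the strand of the gene, with the match in capitals. In AARS, CARS, GARS, IARS, MARS and TARS the capitals are the reverse complement of the searched letters, in NARS and YARS2 the letters themselves.
AARS, chr16:70289675-70289704, minus strand: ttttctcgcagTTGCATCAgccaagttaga
CARS, chr11:3057407-3057436, minus strand: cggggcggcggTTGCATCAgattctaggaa
GARS, chr7:30594834-30594863, plus strand: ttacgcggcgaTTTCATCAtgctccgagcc
IARS, chr9:92293692-92293721, minus strand: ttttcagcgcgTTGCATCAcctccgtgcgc
MARS, chr12:57488053-57488082, plus strand: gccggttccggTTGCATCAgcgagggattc
NARS, chr18:57621804-57621833, minus strand: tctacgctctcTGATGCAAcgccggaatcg
TARS, chr5:33440956-33440985, plus strand: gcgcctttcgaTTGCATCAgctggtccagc
YARS2, chr12:32756076-32756105, minus strand: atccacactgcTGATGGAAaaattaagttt

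Counted from the start of the gene, the match lay at bases -187 to -180 in AARS, at -33 to -26 in GARS and at -13 to -6 in IARS. In CARS and MARS it spanned the start itself, and in TARS and NARS it lay just downstream, at 2 to 9 and 14 to 21. The match of YARS2, at -197 to -190, was the farthest upstream, followed by that of AARS. Windows were not given for DARS, LARS, VARS, YARS, AARS2 and VARS2. The core of the xenobiotic response element, GCGTG, through which AhR and ARNT act, was in the windows of 24 of 29 members, against 58.03% of tested genes with a window, and the E-box CACGTG, bound by MITF and MYC among others, in 3 of 29 against 12.4%. A match is a description of the letters and does not show binding.

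The 250 bases upstream of the start are printed for AARS and GARS, which were chosen after their values were seen. Both were called higher in the 3 comparisons with RSV described below. So was CARS, whose match spans the start and whose 250 bases are not printed. The C/EBP-ATF match is in capitals.
AARS, chr16:70289507-70289756, minus strand: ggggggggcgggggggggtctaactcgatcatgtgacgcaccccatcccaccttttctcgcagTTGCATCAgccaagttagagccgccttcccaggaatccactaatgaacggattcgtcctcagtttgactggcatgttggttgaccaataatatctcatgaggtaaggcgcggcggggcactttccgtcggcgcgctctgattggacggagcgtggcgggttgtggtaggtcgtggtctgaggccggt
GARS, chr7:30594628-30594877, plus strand: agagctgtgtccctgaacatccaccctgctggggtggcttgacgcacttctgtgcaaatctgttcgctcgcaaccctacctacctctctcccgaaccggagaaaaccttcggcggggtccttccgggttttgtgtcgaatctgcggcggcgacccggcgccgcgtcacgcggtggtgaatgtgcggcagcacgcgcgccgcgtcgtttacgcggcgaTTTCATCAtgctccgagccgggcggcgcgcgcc

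Vem moved the members in both directions. Of the 35, 13 were called higher and 6 lower at a Benjamini-Hochberg adjusted p below 0.05 (the quasi-likelihood test of edgeR, written as edgeR adjusted p from here on), while 25.4% of all tested genes were higher and 27% lower. The median log2 fold change of the members was 0.14, and that of all tested genes -0.030. Cytosolic and dual members gave 8 higher and 5 lower, and mitochondrial members 5 higher and 1 lower. The highest rises were those of LARS2, PARS2, QARS and SARS, and the deepest falls those of FARSB and DARS. Library sizes taken from the ERCC spike-ins moved the median over all tested genes by -0.65 and left 0 members higher and 2 lower, so the directions given here are relative to the other genes of each library.

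LARS2, the mitochondrial leucyl enzyme (chr3:45430053-45596218, plus strand, GRCh37), had 56.5 and 61.3 CPM in the vehicle libraries and 107 and 107 CPM with Vem (log2 fold change 0.86, SE 0.10, edgeR adjusted p = 2.67e-06). PARS2, which charges proline in mitochondria, went from 11.5 and 12.9 to 21.8 and 22.2 CPM (log2 fold change 0.85, SE 0.13, edgeR adjusted p = 3.02e-05). QARS, the glutaminyl enzyme of the complex (chr3:49133365-49142563, minus strand), went from 307 and 317 to 550.1 and 573 CPM (log2 fold change 0.85, SE 0.077, edgeR adjusted p = 1.56e-07). In all 3 genes the groups did not overlap, and Vem was the higher. The groups did not overlap for 26 of 35 members and 75.9% of all tested genes in this comparison. SARS (seryl) rose from 169 and 163 to 279 and 256 CPM (log2 fold change 0.69, SE 0.095, edgeR adjusted p = 1.56e-05). WARS (tryptophanyl) rose from 82.4 and 87.2 to 145 and 128 CPM (log2 fold change 0.68, SE 0.11, edgeR adjusted p = 1.00e-04). The histidyl neighbours HARS and HARS2, given with their promoter below, and VARS2 (0.51) were also called higher. Under spike-in scaling HARS and VARS2 changed sign, to -0.17 and -0.15.

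FARSB (chr2:223431618-223520811, minus strand) fell from 107 and 121 CPM in vehicle to 56.1 and 65.5 CPM with Vem (log2 fold change -0.91, SE 0.10, edgeR adjusted p = 2.15e-06), while FARSA, its partner subunit, had 133 and 163 and 161 and 182 CPM and was not called (0.21, edgeR adjusted p = 0.139). DARS (aspartyl) fell from 126 and 106 to 64.8 and 81.2 CPM (log2 fold change -0.67, SE 0.12, edgeR adjusted p = 1.75e-04). No Vem library of either gene reached the lower vehicle library, and the groups did not overlap for 75.9% of all tested genes. IARS2 went from 274 and 255 to 208 and 209 CPM (log2 fold change -0.34, SE 0.088, edgeR adjusted p = 0.00367), and IARS from 296 and 314 to 252 and 255 CPM (log2 fold change -0.27, SE 0.090, edgeR adjusted p = 0.0194). The call on IARS was lost without vehicle 2 (-0.20), without Vem 1 (-0.26) and without Vem 2 (-0.28). Of the 8 members of the multisynthetase complex, 2 (QARS and MARS) were called higher and 4 lower (DARS, IARS, RARS and KARS). Of all tested genes 25.4% were higher and 27% lower. The complex had a median of -0.21, against 0.27 for the 12 cytosolic and dual members outside it. MARS (0.24) was not called without vehicle 1 (0.17) or Vem 1 (0.17), without the filter on low counts (0.21) or in a fit of the compared libraries alone (adjusted p = 0.0507), and its value under spike-in scaling was -0.42.

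The scaffold genes of the complex were all called with Vem, beside 25.4% of all tested genes called higher and 27% lower. EEF1E1, which holds synthetases in the complex, went from 17.9 and 19.4 to 6.54 and 5.76 CPM (log2 fold change -1.60, SE 0.23, edgeR adjusted p = 2.34e-05). AIMP1 had 71.7 and 61.3 CPM in vehicle and 48.1 and 51.7 CPM with Vem (log2 fold change -0.41, SE 0.12, edgeR adjusted p = 0.0066), a call lost without vehicle 1 (-0.30) and without Vem 1 (-0.36). AIMP2 rose from 36.2 and 45.6 to 65.6 and 67.6 CPM (log2 fold change 0.70, SE 0.12, edgeR adjusted p = 1.49e-04). One scaffold gene was thus higher and the others lower.

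**Figure D2:**
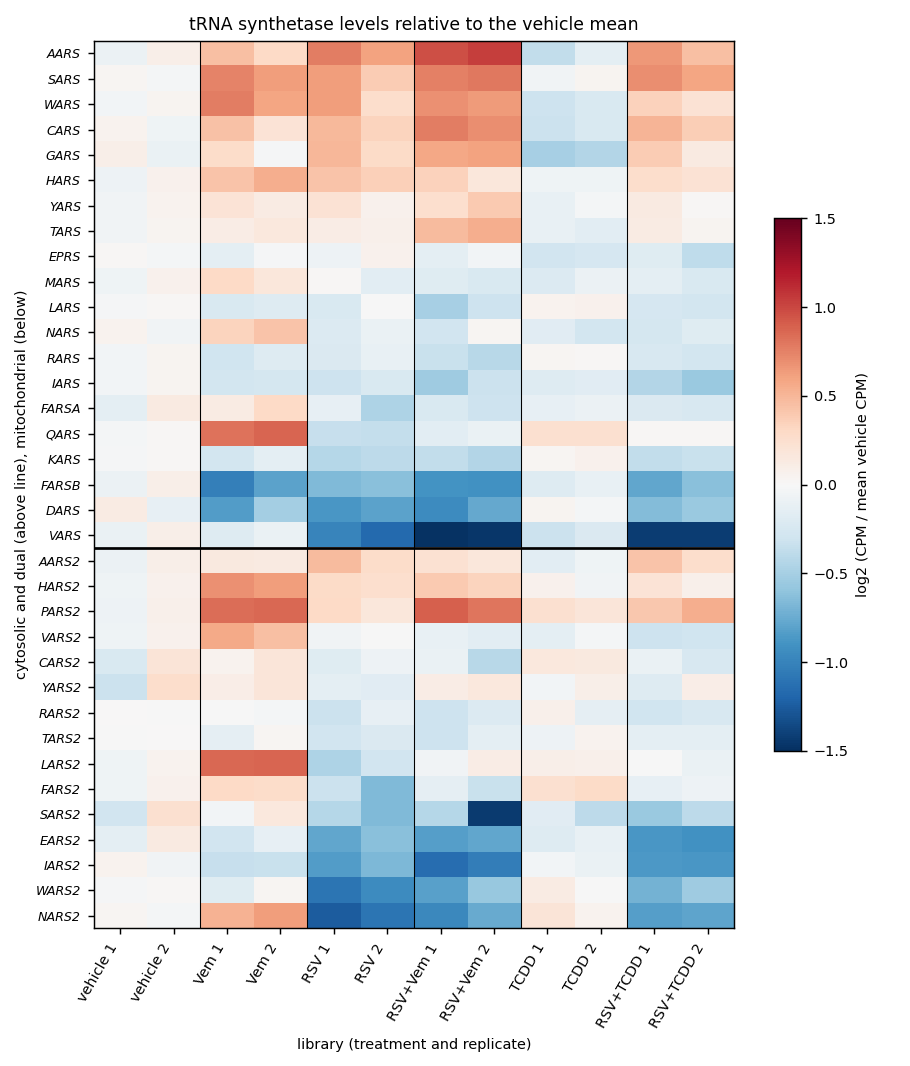
Level of each of the 35 members (rows) in each of the 12 libraries (columns) as log2 of its TMM-scaled CPM over its mean in vehicle (colour, red higher and blue lower), ordered by the change with RSV within each compartment. QARS and LARS2 are red in both Vem libraries, and VARS, NARS2, WARS2 and IARS2 are blue in all 6 libraries with RSV.

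RSV alone raised several cytosolic members and lowered members of both compartments. 8 of 35 were called higher and 12 lower, against 20.5% and 20.4% of all tested genes. Among the 20 cytosolic and dual members 6 were higher and 6 lower, and among the 15 mitochondrial members 2 and 6. None of the 8 complex members was called higher and 4 were lower (DARS, KARS, QARS and IARS), while 6 of the 12 cytosolic members outside the complex were higher (AARS, SARS, WARS, CARS, GARS and HARS) and 2 lower (VARS and FARSB). The medians were -0.22 in the complex and 0.26 outside it, beside -0.0018 for all tested genes. In this comparison scaling by spike-ins moved the median gene by -0.17 and left no member called.

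AARS, the alanyl enzyme (chr16:70285886-70323610, minus strand, GRCh37), had 244 and 276 CPM in vehicle and 441 and 393 CPM with RSV (log2 fold change 0.68, SE 0.11, edgeR adjusted p = 1.09e-04). SARS rose from the vehicle values above to 257 and 216 CPM (log2 fold change 0.51, SE 0.095, edgeR adjusted p = 5.45e-04). CARS (cysteinyl) rose from 96.2 and 88.7 to 129.7 and 117 CPM (log2 fold change 0.42, SE 0.10, edgeR adjusted p = 0.00394). The RSV libraries of these genes all lay above the vehicle libraries. The groups did not overlap for 28 of 35 members and 67.9% of all tested genes. WARS reached 131 and 101 CPM (log2 fold change 0.45, SE 0.11, edgeR adjusted p = 0.00468), and without RSV 1 its change was 0.26 and no longer called. GARS (chr7:30620149-30673649, plus strand) had 302 and 265 CPM in vehicle and 401 and 346 CPM with RSV (log2 fold change 0.40, SE 0.11, edgeR adjusted p = 0.0104), a call lost without vehicle 2 (0.31) and without RSV 1 (0.28). In both genes RSV 1 was the higher of the RSV libraries.

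NARS2, the mitochondrial asparaginyl enzyme (chr11:78146666-78286239, minus strand), showed the largest fall, from 122 and 117 to 50.1 and 55.9 CPM (log2 fold change -1.17, SE 0.10, edgeR adjusted p = 5.77e-07). VARS, the cytosolic valyl enzyme (chr6:31745295-31763529, minus strand), fell from 245 and 279 to 132 and 117 CPM (log2 fold change -1.08, SE 0.094, edgeR adjusted p = 6.31e-07). WARS2 (mitochondrial tryptophanyl) fell from 26.0 and 26.5 to 12.2 and 13.6 CPM (log2 fold change -1.02, SE 0.13, edgeR adjusted p = 2.40e-05). In each of these genes the higher RSV library lay below the lower vehicle library, and the groups did not overlap for 67.9% of all tested genes. DARS fell to 63.5 and 66.8 CPM (log2 fold change -0.83, SE 0.12, edgeR adjusted p = 5.50e-05), IARS2 to 148 and 167 CPM (-0.75) and FARSB to 72.0 and 74.0 CPM (-0.64). EARS2 (mitochondrial glutamyl) fell from 68.4 and 83.5 to 44.4 and 49.2 CPM (-0.70), while AARS2 (mitochondrial alanyl) rose from 78.3 and 88.4 to 116 and 101 CPM (0.38), a call lost without vehicle 1 (0.29) or RSV 1 (0.27). For valine and tryptophan the partners differed: VARS2 had 65.5 and 67.6 CPM with RSV against 65.0 and 70.8 in vehicle (-0.030, edgeR adjusted p = 0.829), while WARS rose and WARS2 fell. The difference between partners was not tested.

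Known targets of ATF4, a list of 16 genes outside the set, gave 10 higher and 0 lower with RSV, with a median of 0.59, beside 20.5% and 20.4% of all tested genes, the shares against which each list in this comparison is to be read. ASNS, asparagine synthetase, went from 52.2 and 34.3 to 156 and 112 CPM (log2 fold change 1.64, SE 0.21, edgeR adjusted p = 2.10e-05). TRIB3 changed by 1.34, SE 0.22, edgeR adjusted p = 2.12e-04, and DDIT3, a transcription factor of the stress response, by 1.65, SE 0.24, edgeR adjusted p = 6.75e-05. RSV 1 stood above RSV 2 in all of these, with 240.4 and 145 CPM for TRIB3, 92.8 and 55.1 for DDIT3 and 553 and 365 for ATF4. Without RSV 1 the changes were 1.38 for ASNS, 0.93 for TRIB3 and 1.22 for DDIT3. The median of the list was 0.55 without RSV 1 and 0.58 without vehicle 2. The absence of lower calls did not hold in every fit. Genes of the list were called lower without vehicle 2. Without the filter on low counts the list gave 10 higher and 1 lower, beside 3231 and 3373 of 31085 genes. Under spike-in scaling the list gave 4 higher and 0 lower, beside 261 and 113 of the 16080 tested genes. TRIB3 was then at 1.21 and not called. ATF4 mRNA itself was not called (0.37, SE 0.15, edgeR adjusted p = 0.062), with a value of 0.035 without RSV 1 and a call without RSV 2 (0.63), with DESeq2 (DESeq2 adjusted p = 0.0439), without the filter on low counts or with a replicate block (adjusted p = 0.0281). ATF4 is controlled largely at translation, which these data do not measure. With Vem the same list gave 5 higher and 4 lower, beside 25.4% and 27% of all tested genes. Under spike-in scaling the list gave 1 and 3 with Vem, beside 196 and 3574 of the 16080 tested genes. Without Vem 1 it gave 3 and 4, and without vehicle 1 or Vem 2 5 and 2. In this comparison ASNS was at 0.55 (0.17 without Vem 1, 0.29 without vehicle 2, neither called, 0.87 without vehicle 1 and 0.84 without Vem 2), a call also lost with DESeq2 (DESeq2 adjusted p = 0.118) and in a fit of the compared libraries alone (adjusted p = 0.0638), and ATF4 was at 0.42 (0.27 without Vem 1, 0.37 without vehicle 2, neither called). The 8 members with the C/EBP-ATF letters gave 3 higher (AARS, CARS and GARS) and 1 lower (IARS), and the 9 cytosolic and dual members with a window but without them 3 and 3. Of the 10 tested amino acid transporters 2 were higher and 3 lower with RSV, and of the 8 tested elongation factors 1 and 4. The scaffold gene EEF1E1 fell to 8.62 and 12.6 CPM (-0.81), a call lost without RSV 1 (-0.57). Of the 5 mitochondrial partner genes 1 was higher and 2 lower, of the 6 other genes of aminoacylation 0 and 2, and of the 9 regulators around GCN2 and ATF4 4 and 0.

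RSV was added to 3 backgrounds, vehicle, Vem and TCDD, and the 3 comparisons share no library. AARS, CARS and GARS were called higher in all 3, and EARS2, IARS2, NARS2, QARS, VARS and WARS2 lower in all 3. These are 3 and 6 of 35 members (8.57% and 17.1%), beside 6.77% and 6.87% of all tested genes. The sign was the same in all 3 for 31 of 35 members (88.6%) and for 55.9% of all tested genes. The tested genes were not matched to the members by level, and no share was computed for genes of similar level. All 3 that rose in each setting are cytosolic or dual and hold the C/EBP-ATF letters in their windows. Of the 6 that fell, 4 are mitochondrial, and none with a window holds the letters. The other members with the letters, IARS, MARS, NARS, TARS and YARS2, were not called higher in all 3. IARS was called lower with RSV alone and when RSV was added to TCDD, and MARS and NARS when it was added to Vem. SARS, WARS and HARS, with windows but without the letters, were called higher with RSV alone and when RSV was added to TCDD. HARS2 was the member called in opposite directions, higher with RSV alone and lower when RSV was added to Vem. This is 2.86% of the members, beside 3.77% of all tested genes, and both calls were lost without single libraries, as given with its values. The 9 genes called in the same direction in all 3 were chosen after their values were seen, and the count is a description. Under spike-in scaling none was called in all 3. GARS dropped out without vehicle 2, RSV 1 or Vem 2, CARS without Vem 2, and QARS without any one of the TCDD or RSV+TCDD libraries.

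**Figure D3:**
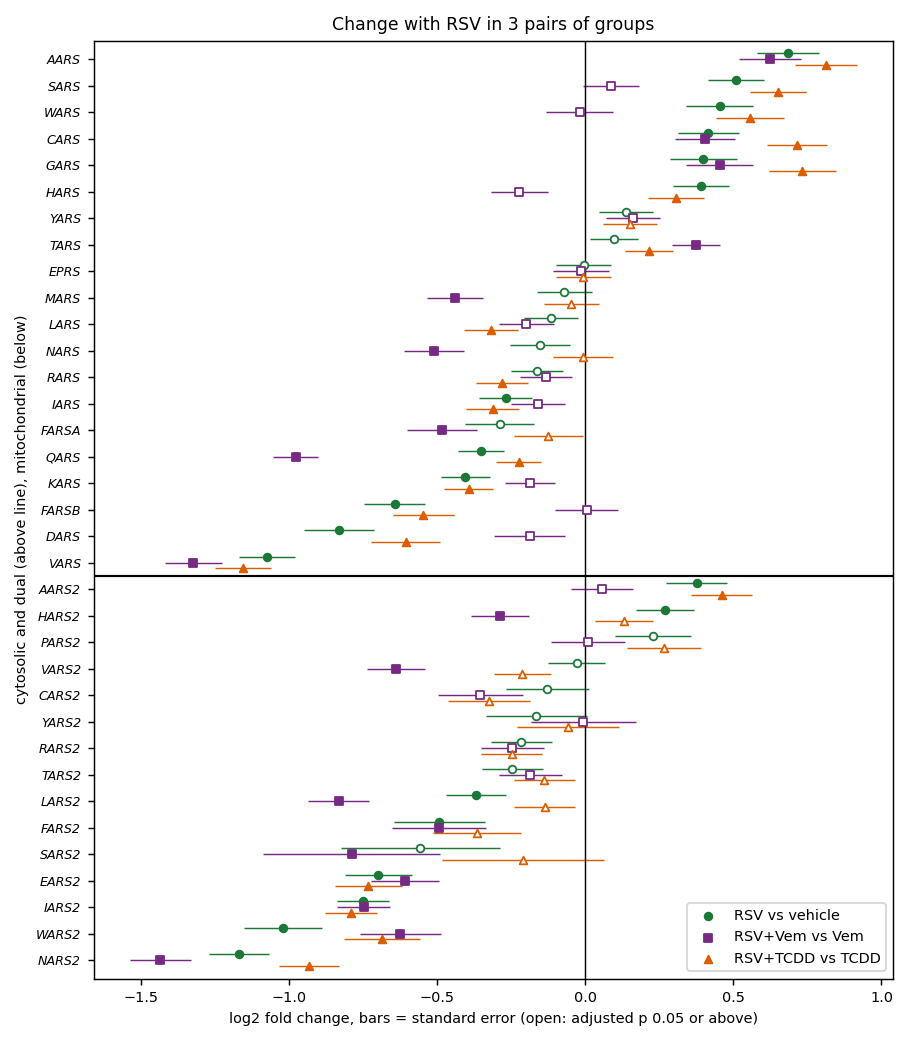
Log2 fold change (horizontal axis) of each member (rows) when RSV was added to vehicle (circles), Vem (squares) or TCDD (triangles), with bars for the standard error and open symbols where the adjusted p was 0.05 or above. AARS, CARS and GARS lie right of 0 and NARS2, VARS, WARS2, IARS2, EARS2 and QARS left of 0 in all 3, while SARS, WARS, HARS, DARS and FARSB stand apart when RSV was added to Vem.

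Adding RSV to Vem called 4 members higher and 14 lower, against 19.2% and 18.7% of all tested genes. The 4 that were higher were AARS, GARS, CARS and TARS, all cytosolic or dual, and 9 of the 15 mitochondrial members were lower with none higher. The mitochondrial median was -0.49, and that of the cytosolic and dual members -0.15, beside 0.026 for all tested genes. Spike-in scaling, which moved the median of all genes by -0.042, left 0 members higher and 1 lower. The spread of the spike-ins between the RSV+Vem libraries enters this fit. Both RSV+Vem libraries had the lowest RIN values, and the part of RNA quality was not tested.

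AARS reached its highest level of the study in RSV+Vem, 506 and 535 CPM, from 355 and 319.8 CPM with Vem alone (log2 fold change 0.62, SE 0.11, edgeR adjusted p = 2.16e-04). GARS had 344 and 280.0 CPM with Vem and 423 and 432 CPM with RSV+Vem (log2 fold change 0.45, SE 0.11, edgeR adjusted p = 0.00487). CARS had 125 and 107 and 157 and 149.7 CPM (log2 fold change 0.40, SE 0.10, edgeR adjusted p = 0.00518). The calls on GARS and CARS were lost without Vem 2 (0.31 and 0.30), in which both genes were lower than in Vem 1. TARS rose from 416 and 429.7 to 534 and 562 CPM (log2 fold change 0.37, SE 0.080, edgeR adjusted p = 0.00163). All 4 hold the C/EBP-ATF letters, and of the other 4 that do, 2 (MARS and NARS) were called lower. ATF4 targets gave 11 of 16 higher and 0 lower in this comparison, beside 19.2% and 18.7% of all tested genes, with ASNS at 1.45. Under spike-in scaling 7 were higher and 0 lower, beside 337 and 54 of the 16080 tested genes. ASNS was then at 1.42 and not called.

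NARS2 fell from 171 and 184 CPM with Vem to 61.3 and 70.7 CPM with RSV+Vem (log2 fold change -1.44, SE 0.10, edgeR adjusted p = 8.15e-08). VARS fell from 229 and 244 to 93.9 and 95.2 CPM (log2 fold change -1.32, SE 0.097, edgeR adjusted p = 9.06e-08). QARS fell from 550.1 and 573 to 279.7 and 289.9 CPM (log2 fold change -0.98, SE 0.077, edgeR adjusted p = 1.78e-07), and so returned below its vehicle range. LARS2 fell from 107 and 107 to 56.9 and 63.8 CPM (log2 fold change -0.83, SE 0.10, edgeR adjusted p = 1.18e-05), with vehicle at 56.5 and 61.3. For QARS and LARS2, then, the level with both agents lay near that of vehicle, while for NARS2 and VARS it lay far below. The difference of RSV+Vem from vehicle was not tested.

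**Figure D4:**
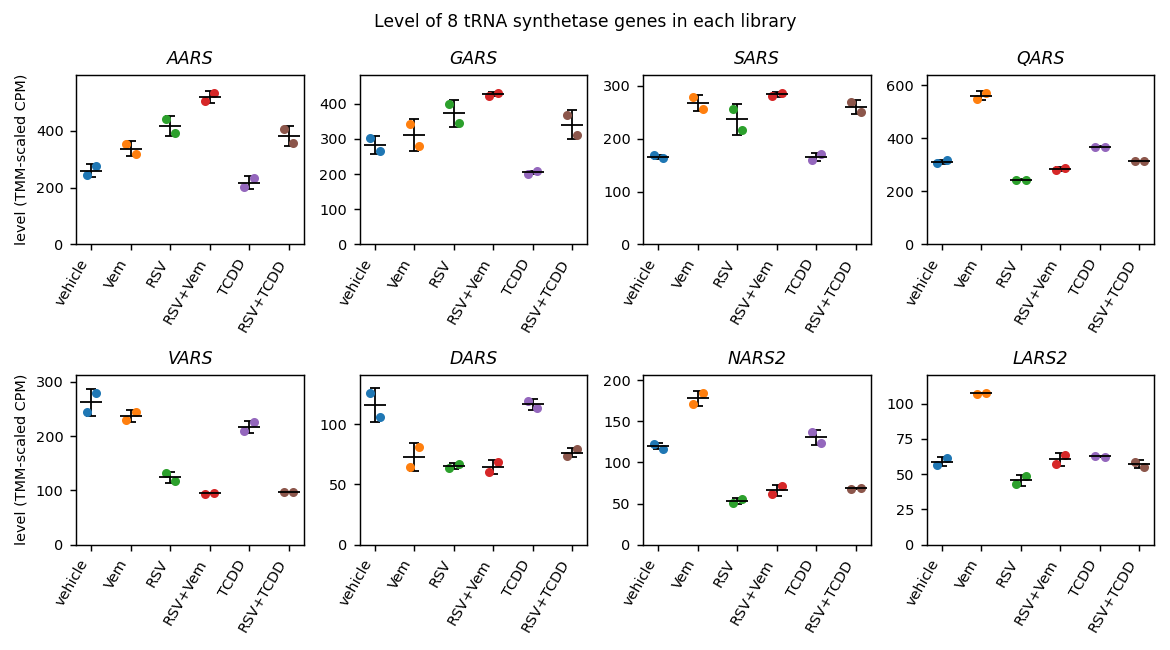
TMM-scaled CPM (vertical axis, from 0) of 8 members in each library (points), by treatment group (horizontal axis), with the mean and SD of the 2 libraries of a group. QARS and LARS2 peak with Vem, at 561 and 107 CPM, and VARS and NARS2 are low in all 3 groups with RSV.

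Adding Vem to RSV called 7 members higher and 3 lower, against 11.2% and 13.1% of all tested genes. PARS2 rose from 15.0 and 13.7 to 22.8 and 21.4 CPM (log2 fold change 0.63, SE 0.13, edgeR adjusted p = 0.00195). TARS rose from 416 and 406 to 534 and 562 CPM (log2 fold change 0.41, SE 0.080, edgeR adjusted p = 0.00149), and LARS2 from 42.8 and 48.3 to 56.9 and 63.8 CPM (0.40), a call lost without RSV 1 (0.32) or RSV+Vem 2 (0.32). Under spike-in scaling, which moved the median of all tested genes by -0.53, TARS and LARS2 changed sign (-0.13 and -0.14), and no member was called. VARS went from 132 and 117 to 93.9 and 95.2 CPM (-0.39) and IARS2 from 148 and 167 to 119.5 and 129 CPM (-0.34). The call on VARS was lost without RSV 1 (-0.31) or RSV+Vem 1 (-0.38), and that on IARS2 without RSV 2 (-0.25) or RSV+Vem 1 (-0.28). Without RSV+Vem 1, 4 members were called in all.

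The interaction term tested whether the change with RSV differed with Vem present. It was called for 9 members, 2 positive and 7 negative, against 12% and 10.7% of all tested genes. The largest negative terms were those of QARS (-0.63, SE 0.11, edgeR adjusted p = 7.52e-04), HARS (-0.61, SE 0.13, edgeR adjusted p = 0.00392) and VARS2 (-0.61, SE 0.14, edgeR adjusted p = 0.00461), then HARS2 (-0.56), WARS (-0.47), LARS2 (-0.46) and SARS (-0.42). A negative term means that RSV lowered the gene more, or raised it less, with Vem than without. VARS2 shows this plainly. It had 65.0 and 70.8 CPM in vehicle and 65.5 and 67.6 with RSV, but 100.4 and 92.5 with Vem and 63.0 and 60.7 with RSV+Vem. WARS had 131 and 101 CPM with RSV, 145 and 128 with Vem and 137 and 132 with both, and SARS had 257 and 216, 279 and 256 and 281 and 287 CPM. In both genes every library of these 3 groups stood above both vehicle libraries.

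FARSB and DARS had positive terms (0.65, SE 0.15, edgeR adjusted p = 0.00524 and 0.64, SE 0.17, edgeR adjusted p = 0.0123). FARSB had 72.0 and 74.0 CPM with RSV, 56.1 and 65.5 with Vem and 61.1 and 60.8 with both agents. DARS had 63.5 and 66.8, 64.8 and 81.2 and 60.2 and 68.3 CPM in the same groups, so that the level with both agents was close to that with either alone. The calls on DARS, LARS2, SARS and WARS are the weaker ones. That on DARS was lost without Vem 1 (0.49) or RSV+Vem 2 (0.56), and the others without most single libraries of the 4 groups, with values down to -0.37 for LARS2 (without RSV 2), -0.29 for SARS and -0.28 for WARS (both without RSV 1). These 3 were also lost in a fit of the compared libraries alone, with edgeR adjusted p = 0.0525, 0.052 and 0.0639, and that on LARS2 without the filter on low counts (edgeR adjusted p = 0.0716). Without Vem 1, 5 members were called, and with spike-in scaling none, with 13 at an unadjusted p below 0.05 in the TMM-scaled edgeR fit and 10 called by DESeq2. None of the 8 members with the C/EBP-ATF letters was among the 9. EEF1E1, the scaffold gene, had a larger positive term (1.51, SE 0.33, edgeR adjusted p = 0.00368).

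**Figure D5:**
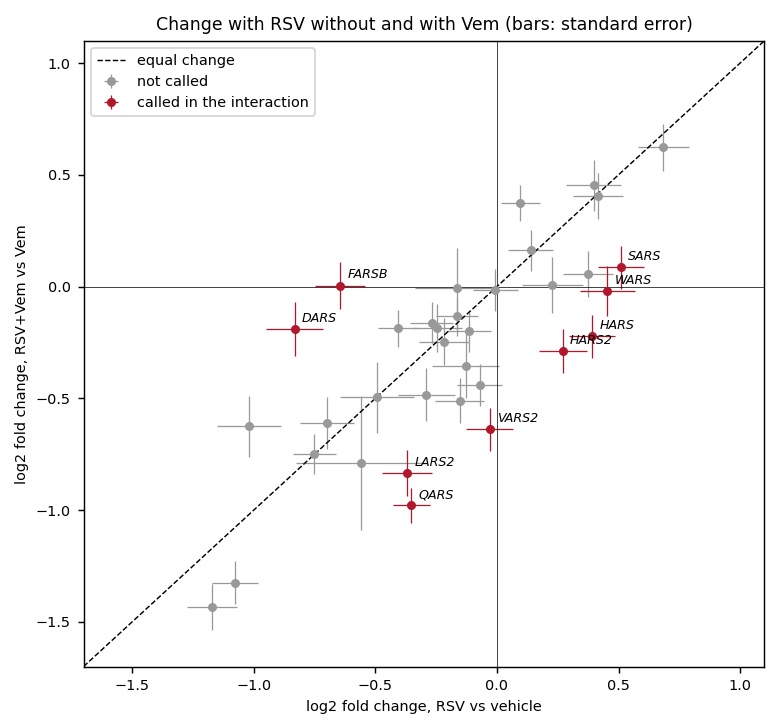
Log2 fold change with RSV in the presence of Vem (vertical axis) against that in its absence (horizontal axis) for the 35 members, with standard errors as bars. Both comparisons have their own libraries, points on the dashed line changed equally, and the 9 red, named members were called in the interaction, DARS and FARSB above the line and 7 below it.

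TCDD alone changed the members little. One member, GARS, was called lower and none higher, against 1.9% and 4.5% of all tested genes. GARS had 201 and 208 CPM with TCDD against 302 and 265 in vehicle (log2 fold change -0.47, SE 0.11, edgeR adjusted p = 0.0209). Both TCDD libraries were the lowest of the study for this gene, but the call was lost without vehicle 1 (-0.37), TCDD 1 (-0.44) or TCDD 2 (-0.49), and with spike-in scaling, which moved the median gene by -0.51. All 12 cytosolic and dual members outside the complex had fold changes below 0, with a median of -0.19, beside 0.013 for the complex, 0.012 for the mitochondrial members and -0.0046 for all genes. None but GARS passed the test. ATF4 targets gave 1 of 16 higher and 3 lower, beside the shares of all tested genes given above.

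Adding RSV to TCDD called 8 members higher and 12 lower, against 18.6% and 19.1% of all tested genes. AARS rose from 201 and 234 to 407 and 356 CPM (log2 fold change 0.81, SE 0.11, edgeR adjusted p = 3.02e-05), GARS from 201 and 208 to 369 and 311 CPM (0.73) and CARS from 73.9 and 79.0 to 131 and 119 CPM (0.71). VARS fell from 209.7 and 225 to 97.6 and 97.3 CPM (log2 fold change -1.16, SE 0.095, edgeR adjusted p = 3.97e-07), and NARS2 from 137 and 124 to 67.6 and 69.0 CPM (-0.93). In the complex 0 were higher and 6 of 8 lower, and outside it 7 of 12 higher and 2 lower. Spike-in scaling moved the median of all tested genes by -0.69, and 0 members were higher and 7 lower. Adding TCDD to RSV called 2 higher (3.61% of all tested genes) and 1 lower (2.08%): NARS2 went from 50.1 and 55.9 to 67.6 and 69.0 CPM (log2 fold change 0.37, SE 0.10, edgeR adjusted p = 0.0467). QARS went from 245 and 244 to 315 and 316 CPM (log2 fold change 0.37, SE 0.077, edgeR adjusted p = 0.0107) and VARS from 132 and 117 to 97.6 and 97.3 CPM (log2 fold change -0.35, SE 0.095, edgeR adjusted p = 0.0401). Without RSV 1 the calls on NARS2 (0.30) and VARS (-0.26) were lost, and without any one of RSV 2, RSV+TCDD 1 or RSV+TCDD 2 all 3 were lost. They were also lost in a fit of the compared libraries alone. Spike-in scaling moved the median of all tested genes by -1.03, turned NARS2 and QARS to -0.65 and -0.65 and called 21 members lower. The interaction of RSV and TCDD was called for no member with edgeR or with DESeq2, none had an unadjusted p below 0.05 with either, and 0.124% of all tested genes were called. Its values ranged from -0.20 to 0.35.

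The 6 members EPRS, YARS, CARS2, RARS2, TARS2 and YARS2 were called in none of the 9 comparisons. EPRS, the double enzyme for glutamate and proline, ranged from 169.5 to 229 CPM (median 204) over the 12 libraries, and YARS (tyrosyl) from 202 to 287 CPM (median 233). RARS2 (mitochondrial arginyl) ranged from 61.9 to 81.9 CPM (median 71.1) and TARS2 from 46.6 to 60.3 CPM (median 52.7). CARS2 ranged from 24.6 to 37.4 CPM (median 30.8), and YARS2, whose counts are few, had a median of 14.7 CPM. The adjusted p of EPRS was lowest in RSV+TCDD against RSV (-0.27, edgeR adjusted p = 0.0974). A p that misses the threshold does not show that these levels were equal.

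HARS and HARS2, the cytosolic and the mitochondrial histidyl enzyme, are neighbouring genes read away from each other from 1 short region. On GRCh37 HARS lies at chr5:140052620-140071122, minus strand, and HARS2 at chr5:140071015-140078890, plus strand. The 84 bases between their RefSeq starts on GRCh38.p14 are printed on the plus strand, the strand of HARS2, because it lies between their starts. The capitals mark the reverse complement of GCGTG.
HARS and HARS2, chr5:140691371-140691454, plus strand: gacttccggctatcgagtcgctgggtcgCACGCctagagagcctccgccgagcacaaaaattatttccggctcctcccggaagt

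HARS had 86.6 and 95.6 CPM in vehicle, 122 and 133 with Vem, 122 and 117 with RSV, 116 and 102 with RSV+Vem, 87.2 and 86.9 with TCDD and 109.6 and 106 with RSV+TCDD. HARS2 had 52.4 and 57.6, 88.5 and 84.6, 67.1 and 65.7, 72.1 and 69.5, 57.7 and 53.2 and 63.7 and 58.0 CPM in the same order. Both genes were highest with Vem and lowest in vehicle and TCDD. With Vem the changes were 0.48, SE 0.095, edgeR adjusted p = 4.28e-04 for HARS and 0.65, SE 0.098, edgeR adjusted p = 3.57e-05 for HARS2, and with RSV 0.39, SE 0.094, edgeR adjusted p = 0.00369 and 0.27, SE 0.098, edgeR adjusted p = 0.0367. The call on HARS2 with RSV was lost without vehicle 1 (0.20), RSV 1 (0.25) or RSV 2 (0.28), and that in RSV+Vem against Vem (-0.29) without any single one of its 4 libraries (-0.26 to -0.32). Both were also lost without the filter on low counts, and the former in a fit of the compared libraries alone. HARS was not called in RSV+Vem against Vem (-0.22, SE 0.095, edgeR adjusted p = 0.0764). In RSV+TCDD against TCDD HARS was called higher (0.31, SE 0.095, edgeR adjusted p = 0.0185) and HARS2 was not (0.13, SE 0.099, edgeR adjusted p = 0.315). The call on HARS was lost without TCDD 1 (0.31), TCDD 2 (0.30) or RSV+TCDD 1 (0.28), and its sign turned under spike-in scaling (-0.37). The difference between both genes was not tested. The proteins are close paralogs and the genes overlap at their 5′ ends in the annotation, so some reads could be split between them. WDR55 overlaps an exon of HARS, and DDIT3 one of MARS, on the opposite strand, which stranded counting separates only if its strand setting held. The stated setting and the library kit do not match.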

How the data were processed

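Total RNA of the 12 samples was made into stranded poly(A) libraries and sequenced as read pairs. Per the methods of the study, the authors aligned the reads to hg19 (GRCh37) with STAR 2.4.0a and counted primary alignments per gene symbol with featureCounts (Subread 1.5.0-p3). The deposited table holds them as raw counts that were not normalized. The methods state no removal of PCR copies, so counting error is taken as a lower limit. The annotation release that was counted is not given in the sources used here. The stated strand option counts reads on the sense strand, whereas the stated kit yields them on the opposite one, so option and kit conflict. Of the 1000 genes with the most counts, 43 have an antisense gene of their name with AS1 added, whose counts were a median of 0.0934% and at most 18.7% of theirs.

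The 96 control sequences, 92 of them ERCC spike-ins, were taken out. Genes were kept with filterByExpr by group and scaled with TMM factors. edgeR 4.0.16 in R 4.3.3 fitted 1 quasi-likelihood model with a term per group to the 12 libraries, and all p-values were adjusted over the 16080 genes by the Benjamini-Hochberg method, two-sided, with calls at 0.05. An SE is the absolute log2 fold change divided by the root of the F statistic. Levels are TMM-scaled CPM, and CPM per kb uses the Ensembl canonical transcript of GENCODE on GRCh37. Gene symbols are those of the table, and promoter windows were matched through RefSeq synonyms. Members, lists and tests were chosen with earlier results of these data known. Every member could be named. Values per library are given for called members among the 4 largest changes in either direction with Vem, RSV or RSV+Vem against Vem, for members called with TCDD, in RSV+TCDD against RSV or in an interaction, and for HARS and HARS2. EARS2, AARS2 and FARSA were added to these after their values were seen. Other genes were named from fixed lists, ATF4, ASNS, TRIB3, DDIT3 and the scaffold genes. No list was tested as a set.

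Alternatives were DESeq2 1.42.0, RLE factors, spike-in library sizes, no filter on low counts, a replicate block, only the libraries compared, and each library left out in turn. The steps were tested on simulated data. Python 3.11.15 with matplotlib 3.10.9 drew the figures.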

Additional observations from a re-analysis of the deposited data

Results flagged for a closer look

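The change with RSV differed with and without Vem for 9 members, by the interaction term of the edgeR fit. The terms on the log2 scale were -0.42 for SARS, 0.64 for DARS, 0.65 for FARSB, -0.46 for LARS2, -0.63 for QARS, -0.61 for HARS, -0.56 for HARS2, -0.61 for VARS2 and -0.47 for WARS. All 9 rest on 2 libraries in each of 4 groups, and RSV+Vem had the lowest RIN values and the shallowest library.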

How the results depend on the processing

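Spike-in scaling changed most counts of called members. They became 2 with Vem, 0 with TCDD, 0 with RSV, 1 in RSV+Vem against Vem, 0 against RSV, 7 in RSV+TCDD against TCDD, 21 against RSV and 0 in the interaction of RSV and Vem. It turned the log2 fold changes with Vem of HARS -0.17, VARS2 -0.15, MARS -0.42, ASNS -0.10, ATF4 -0.23, in RSV+Vem against RSV of TARS -0.13, LARS2 -0.14, in RSV+TCDD against TCDD of HARS -0.37 and in RSV+TCDD against RSV of NARS2 -0.65, QARS -0.65. The cause was not tested. DESeq2 called 2 members with TCDD. Fitting the compared libraries alone left 6 members in RSV+Vem against RSV and 0 in RSV+TCDD against RSV, with fewer samples to estimate the spread. With each library left out, members called ranged over 13 to 18 with Vem, 0 to 1 with TCDD, 15 to 21 with RSV, 12 to 18 in RSV+Vem against Vem, 4 to 8 against RSV, 14 to 16 in RSV+TCDD against TCDD, 0 to 1 against RSV, 5 to 9 in the interaction of RSV and Vem and 0 to 0 in that of RSV and TCDD. RLE factors and no filter kept every count within 1.5 times. Of the single-gene values, DESeq2 lost 1 call, no filter 4, the compared libraries alone 10 and spike-in scaling 55, without a change of sign in these.

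Replicate differences showed little pairing of the libraries by replicate number, which does not show that there was none. Over 15 pairs of groups, they correlated between -0.12 and 0.15 across genes. The 3 values above 0.1 were among the groups with RSV: 0.149 for RSV with RSV+Vem, 0.155 for RSV with RSV+TCDD and 0.117 for RSV+Vem with RSV+TCDD. The 1 value below -0.1 was that of RSV with TCDD. With the replicate number as a block, 19 members were called with Vem, 20 with RSV, 17 in RSV+Vem against Vem, 11 against RSV and 9 in the interaction of RSV and Vem. Depth limits SARS2, YARS2, FARS2 and PARS2 most, with the fewest counts.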
